A study of Mus musculus with 20 samples.

Results

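Cck, the gene for the neuropeptide cholecystokinin (ENSMUSG00000032532), and Cckbr, the gene for its B-type receptor (ENSMUSG00000030898), were followed in single cells of the mouse habenula. The 2 genes were picked by symbol out of 37994 genes in the developmental tables and 36104 genes in the tables of a second set at embryonic day 18 (E18), because of how they change with stage and which genes go with Cck. Their levels by stage, and the genes that go with Cck at P7 and in the adult, are therefore given as a description without a test.

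Transcripts were counted in 384-well plates, in principle 1 cell per well, with Cel-seq2, a method that tags the 3′ end of each transcript with a unique molecular identifier (UMI). The developmental series had 15 plates of habenula from the Brn3a-tauLacZ line, in which a reporter sits at the Brn3a (Pou4f1) locus, a gene of habenula neurons: E11, E13, E15, E18, postnatal day 4 (P4), P7 and the adult had 2 plates each and E12 had 1. The second set, 5 plates of E18 habenula, used C57BL/6 mice: the left side filled 2 plates, the right side 2, and both sides together 1, whose title gives another stage than its remaining labels. Plates are the replicates, no source used here gives the number of mice, their sex, their genotype at the reporter locus or a sorting gate, and p-values measure the spread between plates only, which may be technical.

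Cholecystokinin is made as a prohormone that is cut by prohormone convertases, trimmed by carboxypeptidase E, sulfated on tyrosine and amidated at its end, then stored in dense-core granules with chromogranins and secretogranins. The B-type receptor binds cholecystokinin and gastrin alike and signals through Gq proteins, phospholipase C beta, inositol trisphosphate receptors and protein kinase C. The A-type receptor, encoded by Cckar, prefers sulfated cholecystokinin. In the brain Cck is known from many cortical and limbic neurons, and the medial habenula is known for neurons that release peptides and acetylcholine onto the interpeduncular nucleus.

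In GENCODE M21 (GRCm38) Cck lies on the minus strand of chromosome 9 from 121489824 to 121495694, and Cckbr on the plus strand of chromosome 7 from 105425731 to 105470898. Neither gene overlaps another annotated gene. Gastrin (Gast) and cholecystokinin share the end by which they bind the B-type receptor, and the bases that code for that end are shown to let the shared part be seen. Each stretch holds the 8 codons before the amidation signal, in exon 3 of 3 (Cck at chr9:121490107-121490130, Gast at chr11:100336846-100336869), with bases that are identical in both genes in capitals.
Cck: GActaCatgGGcTGGATGGAtTTT
Gast: GAggcCtacGGaTGGATGGAcTTT
Of the 24 bases, 16 were identical.

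The promoters of the members are printed because Onecut1, a transcription factor gene, was among the genes that went with Cck in the wells of P7. The window runs from 250 bases before to 50 bases after the start of the gene, in the RefSeq table of GRCm38.p6, which held both members. Capitals mark 3 motifs searched on both strands: TGCGTCA, the element of the Cck promoter that answers to cyclic AMP and phorbol ester, the E-box CACGTG, and ATCAAT, the core of sites bound by Onecut factors. The Cck window is chr9:121495645-121495944 on the minus strand and the Cckbr window is chr7:105425481-105425780 on the plus strand.
Cck promoter: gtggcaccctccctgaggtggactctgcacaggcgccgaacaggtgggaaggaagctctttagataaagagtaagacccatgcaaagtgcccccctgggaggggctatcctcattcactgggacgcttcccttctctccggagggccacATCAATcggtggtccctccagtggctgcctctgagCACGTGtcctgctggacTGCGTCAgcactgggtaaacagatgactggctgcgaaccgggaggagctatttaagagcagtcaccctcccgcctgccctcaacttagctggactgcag
Cckbr promoter: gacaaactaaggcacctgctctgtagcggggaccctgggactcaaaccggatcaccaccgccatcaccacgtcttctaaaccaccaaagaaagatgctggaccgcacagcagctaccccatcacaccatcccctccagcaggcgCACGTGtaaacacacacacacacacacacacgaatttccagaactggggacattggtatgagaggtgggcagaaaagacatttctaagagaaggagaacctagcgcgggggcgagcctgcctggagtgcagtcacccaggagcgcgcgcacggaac
The Cck window held all 3 motifs, with first bases 101 (ATCAAT), 66 (CACGTG) and 49 (TGCGTCA) bases before the start, and none overlapped another. The Cckbr window held the E-box alone, 106 bases before the start. Among 32851 promoters of this length, 2.12% held TGCGTCA, 7.15% the E-box and 7.54% ATCAAT, on either strand. These are matches of letters, and binding was not measured.

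Wells under 1000 UMIs, under 500 genes or over 20% mitochondrial UMIs were dropped, and this left 3729 of 5756 wells in the series and 1082 of 1920 in the second set. Kept wells summed to between 758697 and 7760372 counts per plate in the series and between 1849863 and 6586449 in the second set. Some plates stood apart. On E18 plate 1 of the series 8 of 267 kept wells were neuron-like, against 91 of 110 on E18 plate 2, and the summed level of its medial habenula markers, in CPM (counts of a gene scaled to the same summed count on every plate), was 266 against 3833. E13 plate 2 had 49 of 137 kept wells neuron-like, against 118 of 153 on E13 plate 1, and its vascular markers summed to 1988 CPM against 446 CPM. On adult plate 1 56 of 384 wells were kept, and on left plate 2 of the second set 54 of 384. "Neuron-like" and other such names are clusters rebuilt here without Cck and Cckbr among the genes used, named from marker lists, and no doublet caller was run.

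In the series Cck was at 0 to 2 UMIs per plate from E11 to E18, was found in more wells at P4, and was 12.9-fold higher at P7 than at P4 by the means of the plates. On the E11 plates 1 and 2 UMIs of Cck were found, on the E12 plate 0, on the E13 plates 0 and 0, on the E15 plates 0 and 1, and on the E18 plates 1 and 1. The highest of these 9 plates stood at 0.753 CPM. A count of 0 allows a level of up to 0.632 CPM at E12, 1.70 and 1.59 CPM on the E13 plates and 1.63 CPM on E15 plate 1.

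The P4 plates held 40 and 37 UMIs of Cck, or 6.79 and 5.68 CPM (6.23 ± 0.783, SD, n = 2). At P7 the plates held 575 and 493 UMIs, or 74.2 and 86.8 CPM (80.5 ± 8.90, SD, n = 2). The adult plates held 65 and 306 UMIs, or 85.7 and 60.9 CPM (73.3 ± 17.5, SD, n = 2). P4 lay above all 9 embryonic plates and below all P7 and adult plates. The P7 and adult values overlapped. In order of mean level, P7, the adult and P4 led. Among neuron-like wells alone the adult (93.6 ± 25.2 CPM) had the higher mean and P7 stood at 83.9 ± 7.52 CPM, and as a mean of single wells the adult stood at 155 ± 154 CPM (SD, n = 2). P7 and the adult did not differ beyond their spread, and the embryonic stages could not be ranked at this depth. Nearly all Cck UMIs were spliced: 77 of 77 at P4, 1061 of 1068 at P7 and 367 of 371 in the adult. Summed over a plate, fewer cells with Cck and less Cck RNA per cell cannot be told apart, so the wells were counted next.

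Wells with at least 1 Cck UMI made up 18 of 287 (6.27%) and 12 of 322 (3.73%) kept wells on the P4 plates. On the P7 plates they were 100 of 326 (30.7%) and 98 of 294 (33.3%). In the adult they were 20 of 56 (35.7%) and 61 of 342 (17.8%). The order of P4 and P7 was the same at equal depth. With wells thinned to 2000 UMIs and shallower wells left out, the shares were 0.719% of 278 and 1.59% of 315 wells at P4 and 13.6% of 324 and 12.8% of 282 wells at P7. Thinned adult shares were 12.5% of 40 and 5.81% of 327 wells.

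The median count of positive wells was 2.0 and 2.0 UMIs on the P4 plates, 2.0 and 3.0 on the P7 plates and 2.0 and 2.0 in the adult. In the series, wells with 10 or more UMIs were seen at P7 and in the adult, where there were also more positive wells. The fullest well held 6 and 9 Cck UMIs on the P4 plates, 26 and 23 on the P7 plates, and 14 and 34 in the adult. Wells with 10 or more UMIs numbered 0 and 0 on the P4 plates, 24 and 20 on those of P7, and 2 and 10 on the adult plates. The top 10% of kept wells held 76.2% and 71.8% of all Cck UMIs on the P7 plates, while 35 and 36 of the positive wells there had a single UMI. The Cck UMIs of P7 were thus counted in a small set of wells with many UMIs and a wide set with few. Whether each well with a single UMI held a cell that makes Cck was not tested.

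**Figure D1:**
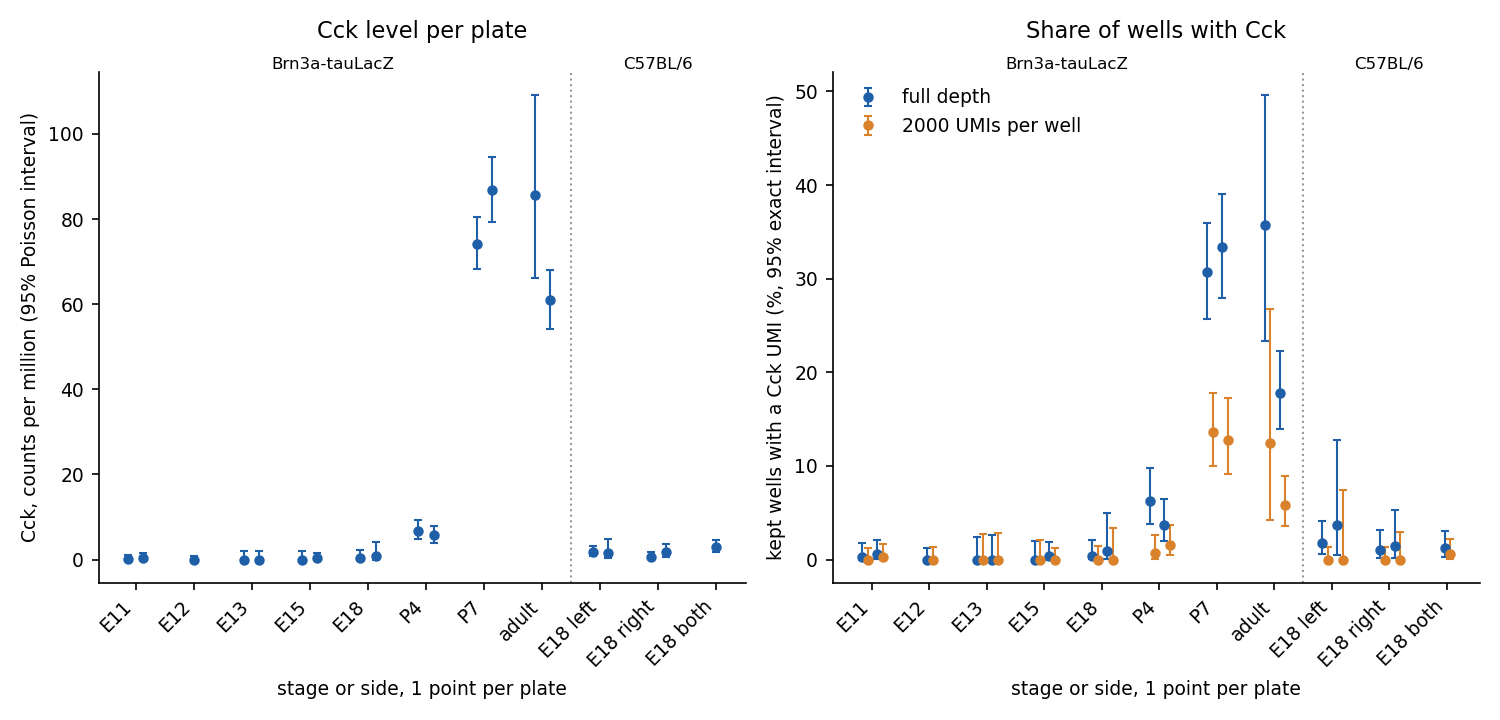
Cck level in CPM (left, 95% Poisson interval) and share of kept wells with at least 1 Cck UMI (right, 95% exact interval; blue at full depth, orange at 2000 UMIs per well), 1 point per plate, with the C57BL/6 plates right of the dotted line. Embryonic plates of the series measured 0.753 CPM or less, P4 plates at 6.79 and 5.68 CPM, and P7 and adult plates from 60.9 to 86.8 CPM. The Poisson interval treats UMIs as independent, though many Cck UMIs shared a well, so it can be too narrow. Both intervals cover counting error alone and leave out the spread between plates.

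Cck was a gene of neuron-like wells. At P4 it was found in 30 of 564 neuron-like wells (5.32%) and in 0 of 45 wells of all other classes (a count of 0 allows up to 6.67% here). At P7 the shares were 194 of 566 (34.3%) and 4 of 54 (7.41%), with median depths of 22117 and 11213 counts per well. In the adult they were 73 of 204 (35.8%) and 8 of 194 (4.12%), with median depths of 21341 and 5212. Wells of other classes held at most 2 Cck UMIs each, and their shares are given as the background for the neuron-like wells. The adult plates held many such wells, 44.6% and 52.3% of kept wells being neuron-like against 89.3% and 93.5% at P7.

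Cluster 18, led among others by Pde11a, a phosphodiesterase gene, and by Gad1, held Cck in 57 of 66 wells (86.4%) and 52 of 64 wells (81.3%) on the P7 plates, at 293 and 276 CPM. In cluster 19, led by the orphan receptor gene Gpr151, Cck was found in 20 of 102 (19.6%) and 31 of 100 wells (31.0%), at 17.5 and 48.5 CPM. In cluster 14, which carried the choline transporter gene Slc5a7 and Chat, it was found in 21 of 122 (17.2%) and 13 of 108 wells (12.0%), at 8.45 and 6.46 CPM. Cluster 18 had the highest share of the 3 on both P7 plates. Of the 1068 Cck UMIs at P7, 896 were in cluster 18.

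The same order was seen at P4. Cluster 18 had Cck in 10 of 26 wells (38.5%) and 4 of 10 wells (40.0%), cluster 19 in 5 of 59 (8.47%) and 5 of 56 (8.93%), and cluster 14 in 3 of 171 (1.75%) and 3 of 229 (1.31%). All 4 plates of P4 and P7 gave cluster 18 the highest share among these 3 clusters. Most adult neuron-like wells formed a cluster of their own, cluster 20, led by Tac2, which had Cck in 10 of 19 (52.6%) and 57 of 172 wells (33.1%). Cluster 20 is nearly an adult cluster, so its share is set beside those of the younger clusters without a comparison.

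**Figure D2:**
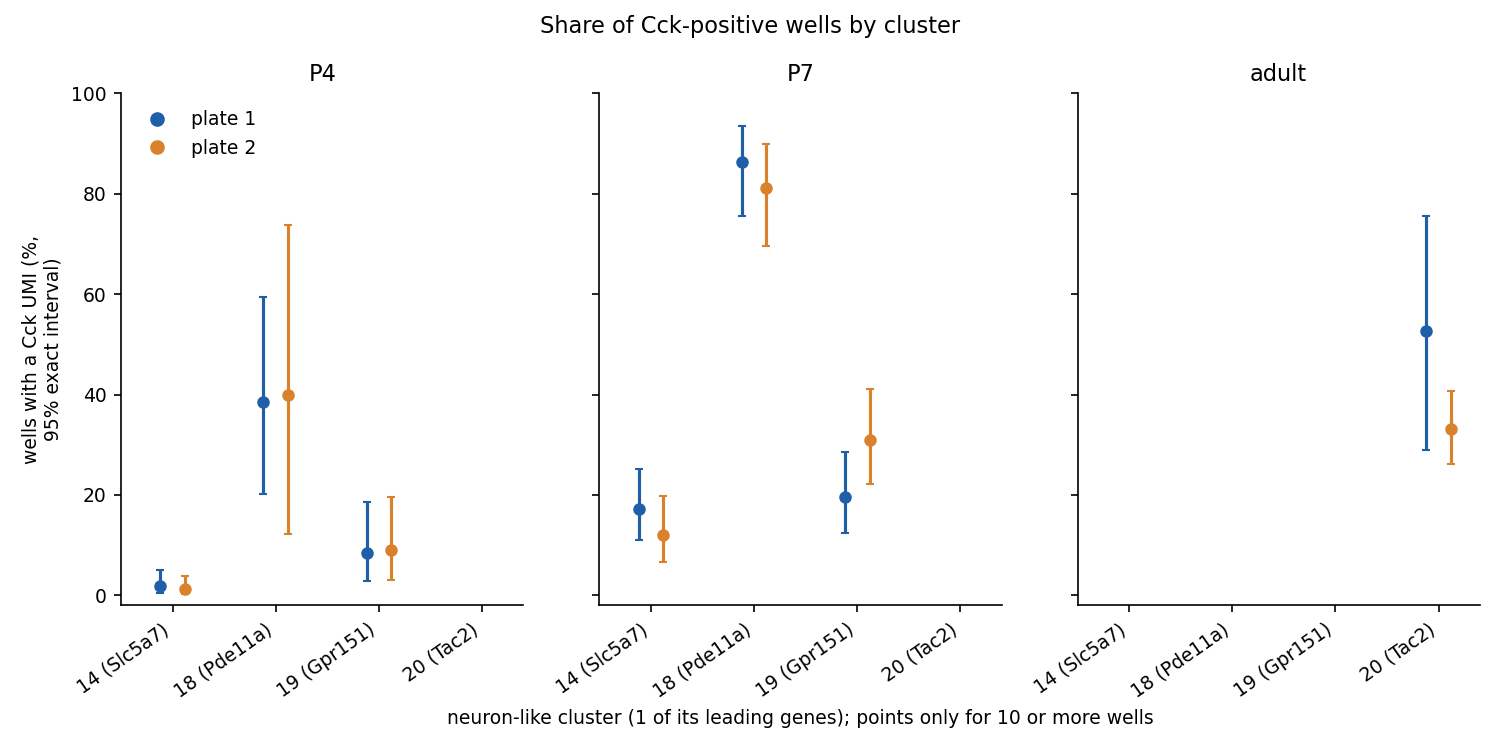
Share of wells with a Cck UMI (%, 95% exact interval) in 4 neuron-like clusters at P4, P7 and in the adult, with plate 1 in blue and plate 2 in orange, for clusters with 10 or more wells on a plate. Cluster 18 has the highest share on both plates at P4 (38.5% and 40.0%) and at P7 (86.4% and 81.3%), and cluster 20 is shown for the adult.

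Genes that went with Cck were taken from the P7 wells: CPM over all Cck-positive wells of a plate was set against CPM over its Cck-negative wells, as a log2 ratio with a pseudocount of 1 CPM. Of 4569 genes with at least 50 CPM in either class on both plates, 3102 had the same sign on both, 70 were at least 2-fold higher on both and 37 at least 2-fold lower. The 10 highest by the smaller of the 2 ratios were Gad1, Sntb1, Tac1, Onecut1, Gm20649, Pde11a, Cdh12, AC124561.1, C130073E24Rik and Gm45323. They include an enzyme that makes GABA (Gad1), a syntrophin of the dystrophin complex (Sntb1), the substance P precursor (Tac1), a homeodomain factor (Onecut1) and a cadherin (Cdh12). Gm20649 overlaps Onecut1 on the same strand, and Gad1, Pde11a, Cdh12 and Gm45323 also overlap other annotated genes, so these values can hold reads of their neighbours, since it is not given whether counting used strand. AC124561.1, on chromosome 15 like Cdh12, was not found under that name in the annotation, so its overlaps are not known here.

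Gad1 stood at 207 CPM in Cck-positive and 12.4 CPM in Cck-negative wells on P7 plate 1, and at 223 and 11.3 CPM on plate 2. It was found in a minority of Cck-positive wells, 34.0% against 11.5% of Cck-negative wells on plate 1 and 32.7% against 11.7% on plate 2. Tac1 stood at 367 and 45.1 CPM on plate 1 and at 367 and 43.3 CPM on plate 2. Pde11a stood at 248 and 14.3 CPM, and at 211 and 28.9 CPM. All 3 were many times higher with Cck on both plates. Onecut1 stood at 93.3 and 11.3 CPM on plate 1 and at 95.9 and 6.22 CPM on plate 2. C130073E24Rik, a gene without an assigned role here, stood at 582 and 64.4 CPM, and at 534 and 80.7 CPM. Over the 10 genes, the log2 ratios ran from 2.69 (Gm45323, plate 2) to 4.19 (Gad1, plate 2). With wells thinned to 5000 UMIs they ran from 2.02 (C130073E24Rik, plate 2) to 4.23 (Gad1, plate 2), and Gad1 on plate 1 fell from 3.95 to 2.56.

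Other genes of GABA neurons were at low levels or at 0. Gad2, the gene of the other GABA-making enzyme, stood at 12.7 and 12.1 CPM in Cck-positive wells of the 2 plates and at 2.86 and 2.26 CPM in Cck-negative wells. The vesicular GABA transporter gene Slc32a1 was at 0 on both plates, and 4 and 3 of the 7 listed interneuron markers were at 0 in Cck-positive wells. The summed level of that list, which holds Gad1 and Gad2 and is mostly Gad1, was 221 and 236 CPM in Cck-positive wells and 15.3 and 13.9 CPM in Cck-negative wells. Slc17a6, which encodes a vesicular glutamate transporter, had log2 ratios of 0.19 and 0.02. Slc17a8, which encodes another vesicular glutamate transporter, had ratios of 1.76 and 1.68.

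Cholinergic genes ran the other way at P7. The choline acetyltransferase gene Chat had log2 ratios of -1.30 and -1.83, the vesicular acetylcholine transporter gene Slc18a3, which lies within Chat, -1.03 and -1.67, and the choline transporter gene Slc5a7 -1.01 and -1.38. Outside the cholinergic genes, Slc17a7, also a vesicular glutamate transporter gene, had ratios of -0.65 and -0.66. Th, the tyrosine hydroxylase gene of catecholamine cells, had -0.83 and -0.39. All 5 were lower with Cck on both plates.

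Among other neuropeptide genes, Adcyap1, which encodes the peptide PACAP, stood at 226 CPM in Cck-positive and 46.8 CPM in Cck-negative wells on P7 plate 1, and at 292 and 66.2 CPM on plate 2. Tac2, which encodes neurokinin B, had smaller log2 ratios of 0.97 and 0.54. Somatostatin (Sst) stood at 19.1 and 86.2 CPM on plate 1 and 15.4 and 127 CPM on plate 2. The share of wells with Sst did not follow these levels, at 23.0% of Cck-positive and 25.7% of Cck-negative wells on plate 1 and 21.4% and 20.9% on plate 2, and Sst was among the leading genes of cluster 18. Cartpt had ratios of -0.51 and -0.83. The cerebellin genes Cbln1, Cbln2 and Cbln4, secreted synapse organisers kept on the same list, had ratios of 0.57 and 0.76, 0.93 and 0.67, and 0.04 and -0.13. Other listed peptide genes, among them Penk, Npy and Vip, stayed under 20 CPM on both plates.

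Among the 10 lowest genes were Bcas1, Col1a2, Col3a1, Sst, Zeb2, Sparc, Cnp, Dbi and Sox2. Several are known from other cell types, Cnp and Bcas1 from oligodendrocytes and Col1a2 and Col3a1 from fibroblasts. Listed markers of such cells were lower in Cck-positive wells too. The oligodendrocyte list of 10 genes summed to 39.3 and 26.1 CPM with Cck and 265 and 212 CPM without, and the vascular list of 11 genes to 259 and 204 CPM against 1254 and 364 CPM. In Cck-positive wells 3 and 4 of the oligodendrocyte genes were at 0. Among neuron-like wells alone, Bcas1 had ratios of -0.05 and 0.72 and Col3a1 0.43 and 0.31, while Sst kept -2.21 and -3.05 and Zeb2, a transcription factor gene, -1.51 and -1.62. After thinning Sox2 had a ratio of -0.57 on plate 2 in place of -2.22, and Dbi -0.39 in place of -1.47. On plate 1 both moved the other way, Sox2 from -1.42 to -2.19 and Dbi from -1.79 to -2.68. A list of genes that respond to dissociation, such as Fos and Hspa1a, was lower with Cck as well, at 613 and 990 CPM against 1201 and 1458 CPM, and its part in the other ratios was not tested.

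In the adult, part of the pattern was seen again and part was not. Tac1 had log2 ratios of 2.02 and 2.44, Onecut1 2.15 and 3.67, Pde11a 3.41 and 2.29, and C130073E24Rik 3.17 and 2.19. Gad1 had ratios of 0.04 and -1.21, and Sntb1 -0.33 and -0.70. Sntb1 was found in more of the Cck-positive adult wells, 50.0% against 22.2% on plate 1 and 24.6% against 15.3% on plate 2, shares that are not scaled for depth. The ratios of Tac1, Onecut1 and Pde11a were above 0 on all 4 plates of P7 and the adult. Other cell types moved with the adult ratios. The oligodendrocyte list summed to 2897 and 341 CPM in Cck-positive wells and 21673 and 4078 CPM in Cck-negative wells, and the vascular list to 103 and 79.9 CPM against 983 and 884 CPM. The list of genes that respond to dissociation summed to 1351 and 2144 CPM against 3626 and 3318 CPM. Median depth was 10764 and 21448 counts in positive and 4072 and 8561 in negative wells. The part of these in the adult ratios, and whether the ratios differ between the stages, was not tested.

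The P4 plates had not been used to pick these genes, and they carry the test. The 18 and 12 Cck-positive wells of the 2 plates were each summed and set against the summed Cck-negative wells, in an edgeR quasi-likelihood fit with the plate as a block. Of 12863 genes tested, 367 were called at an adjusted p under 0.05, which is 2.85%, with 1.47% higher and 1.38% lower in positive wells. All 10 genes picked as higher at P7 were called higher at P4, and 6 of the 10 picked as lower were called lower. Of the 10 higher ones, Sntb1 (log2 fold change 1.94) lost the call with DESeq2 (adjusted p = 0.145, at 1.95) and with positive wells of at least 3 UMIs (0.336, at 2.27). It also lost it after thinning, at -0.000917. Gad1 (2.48) lost the call with at least 3 UMIs (0.0711, at 3.14) and after thinning (0.463, at 2.66). Thinning also ended the calls of Onecut1, Gm20649, Pde11a, AC124561.1 and Gm45323 (adjusted p from 0.432 to 0.887, at log2 fold changes from 1.72 to 2.49), so that 3 of the 10 stayed called in all 5 alternatives. Sst (-2.42 ± 0.80, SE, adjusted p = 0.0790 by edgeR), Bcas1 and Cnp were among those not called. Median depth was similar, at 22771 counts in positive and 19597 in negative wells on plate 1 and 21986 and 20398 on plate 2. Listed markers of other cells were lower in positive wells at P4 as well: the vascular list stood at 45.4 and 16.2 CPM against 214 and 138 CPM, with 5 and 8 of its 11 genes at 0, and the oligodendrocyte list at 45.4 and 16.2 CPM against 111 and 95.1 CPM, with 4 and 9 of 10 at 0. The dissociation list stood at 761 and 535 CPM against 1186 and 888 CPM. A P4 fit on neuron-like wells alone is given below. The part of dissociation in the P4 test, and of RNA of other cells within neuron-like wells, was not tested.

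Tac1 stood 3.41 ± 0.24 (log2 fold change ± SE) higher in Cck-positive wells at P4. Pde11a stood 4.05 ± 0.32 higher, Onecut1 3.30 ± 0.40, C130073E24Rik 3.50 ± 0.21 and Cdh12 2.64 ± 0.22. The log2 ratios of plates 1 and 2 lay further apart than these SEs for Pde11a (3.04 and 5.10), C130073E24Rik (2.74 and 4.21) and Cdh12 (1.68 and 3.57). They lay closer together for Onecut1 (3.11 and 3.29) and Tac1 (3.13 and 3.65). Gad1 stood 2.48 ± 0.51 higher (edgeR adjusted p = 0.000143), a call lost under 2 of 5 alternatives, and its level was uneven, at 111 CPM in positive wells on plate 1, where 6 of 18 held it, and 12.1 CPM on plate 2, where 1 of 12 did. Adcyap1 was 2.42 ± 0.26 higher and Slc17a8 3.52 ± 0.77 higher. Tac2 (1.36 ± 0.20), Cbln1 (1.60 ± 0.30) and Cbln2 (1.14 ± 0.20) were also called higher, in 4 of 5 alternatives each, all but thinning. Chat (-2.41 ± 0.43), Slc18a3 (-1.36 ± 0.29), Slc5a7 (-1.38 ± 0.23) and Slc17a7 (-0.98 ± 0.24) were called lower, and Slc17a6 (0.01 ± 0.18) was not called. Cartpt and Th were not called either. The call of Slc17a7 was lost with DESeq2, with positive wells of at least 3 UMIs and after thinning (adjusted p of 0.409, 0.131 and 0.513), at log2 fold changes of -1.004, -1.23 and -1.54. That of Slc18a3 was lost with DESeq2 (0.191, at -1.44), that of Adcyap1 after thinning (0.887, at 1.34), and that of Slc17a8 with at least 3 UMIs (0.839, at 2.71), and DESeq2 gave Slc17a8 no adjusted p. Chat was not called after thinning either (0.453) and was still lower.

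With neuron-like wells alone, 12 of the 20 genes were called at P4: all 10 higher ones, Zeb2 (-1.23 ± 0.38) and Sox2 (-1.68 ± 0.44). Sparc and Dbi, called lower among all wells, then stood at 0.37 ± 1.05 and -0.22 ± 0.50. The test rests on 30 positive wells. With DESeq2 10 of the 20 genes were called. With wells thinned to 5000 UMIs and positive wells chosen again, which left 6 and 5 positive wells, 3 were called (Tac1, Cdh12 and C130073E24Rik), while Gad1 stood at 2.66 ± 1.12, Onecut1 at 2.46 ± 1.18 and Pde11a at 2.08 ± 1.27. Of all genes tested, 2.63% were called in neuron-like wells, 1.45% with DESeq2 and 1.06% after thinning.

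**Figure D3:**
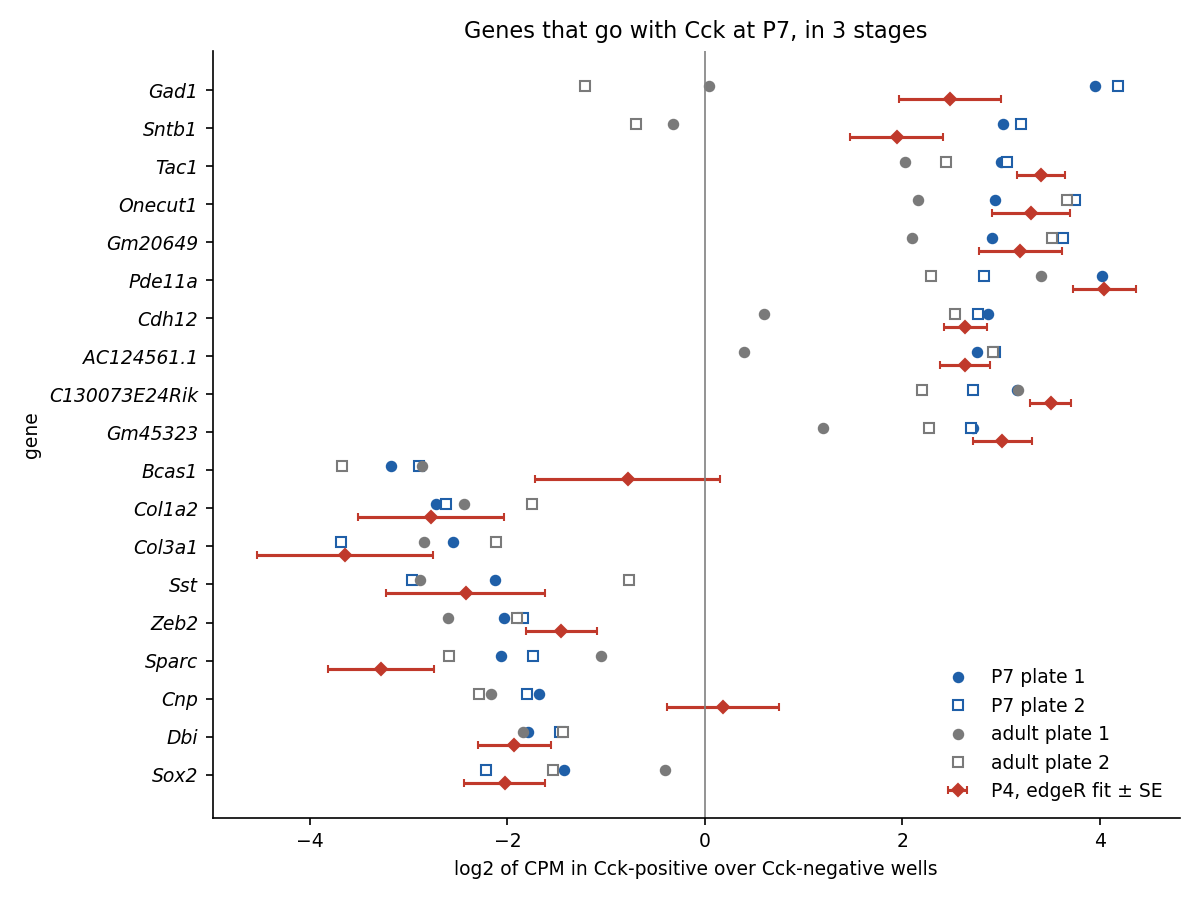
Log2 ratio of CPM in Cck-positive over Cck-negative wells for the 10 highest and 9 of the 10 lowest genes at P7, with P7 plates in blue, adult plates in grey (filled circles plate 1, open squares plate 2) and the edgeR estimate ± SE at P4 in red. The upper 10 genes lie right of 0 at P7 and P4, while Gad1 (0.04 and -1.21) and Sntb1 (-0.33 and -0.70) lie near or left of 0 in the adult.

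Cckbr was rarely detected throughout. In the series it gave 1 and 1 UMIs on the E11 plates, 2 on the E12 plate, 0 and 0 on the E13 plates and 1 and 0 on those of E15. The E18 plates held 21 and 0, the P4 plates 0 and 0, the P7 plates 1 and 3, and the adult plates 0 and 9. E18 plate 1 had the highest level, 8.38 CPM in 8 of 267 wells, and E18 plate 2 had none in 110. No P4 well held a UMI, which allows a share of wells with a detected UMI of up to 1.05% on plate 1 and 0.932% on plate 2. Cells with Cckbr below detection are not covered by these limits. Apart from E18 plate 1 and adult plate 2 (1.79 CPM), the measured level of every plate of the series was at or below 0.543 CPM. Counts of 0 allow more than that on some of them, up to 3.95 CPM on adult plate 1 and 2.26 CPM on E18 plate 2, and the order of these plates cannot be read at this depth.

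In the series at E18 and in the adult, most Cckbr UMIs sat outside neuron-like wells. At E18, 13 of the 21 UMIs sat in 3 of 5 ependymal or choroid plexus-like wells, 7 in 4 of 211 progenitor-like wells and 1 in an oligodendrocyte lineage-like well, and none in 99 neuron-like wells, only 8 of which were on the plate that held the Cckbr. In the adult, 7 of the 9 UMIs sat in 3 of 8 ependymal or choroid plexus-like wells, at 146 CPM. At P7, 1 of 5 such wells held 2 of the 4 UMIs, and 2 neuron-like wells held 1 each. The ependymal or choroid plexus-like wells formed 1 cluster of 19 wells over all stages. E18 plate 1, which held all the Cckbr of that stage, also held summed ependymal or choroid plexus markers of 1082 CPM against 21.1 CPM on plate 2. E13 plate 2 had a higher sum of these markers, 3912 CPM, and 0 Cckbr UMIs. No kept well at E13 fell in that cluster, while a progenitor-like cluster of the series was led by Ttr, a gene of the same marker list. Whether E13 plate 2 held ependymal or choroid plexus cells was not tested. The part of ependymal or choroid plexus-like cells in the difference between the E18 plates was not tested.

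On the C57BL/6 plates at E18 Cckbr was found on every plate. There were 11 and 2 UMIs on the left plates, 10 and 6 on the right plates and 30 where both sides were pooled, in 9, 2, 9, 4 and 17 wells, at 1.86, 1.08, 1.81, 1.73 and 4.56 CPM. Neuron-like wells held part of them: 5 of 13 UMIs on the left plates (5 of 174 wells), 8 of 16 on the right plates (7 of 242 wells) and 14 of 30 on the plate of both sides (12 of 189 wells). In all other classes the wells with Cckbr were 6 of 163, 6 of 170 and 5 of 144. On the plate of both sides 9 of 47 wells of cluster 6 (19.1%) held Cckbr; that cluster was led by Gbx2, a gene of thalamic neurons, and by Sp9. A further 16 UMIs sat in 5 of 56 wells of a cluster led by Foxj1, a factor of ciliated cells, which was left unnamed. Of the 62 wells of that cluster, 56 were thus on the plate of both sides. On no single left or right plate did a cluster with at least 5 wells there hold more than 3 Cckbr UMIs. Unspliced reads made up 8 of 13 Cckbr UMIs on the left plates and 5 of 16 on the right plates, but 2 of 30 on the plate of both sides.

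**Figure D4:**
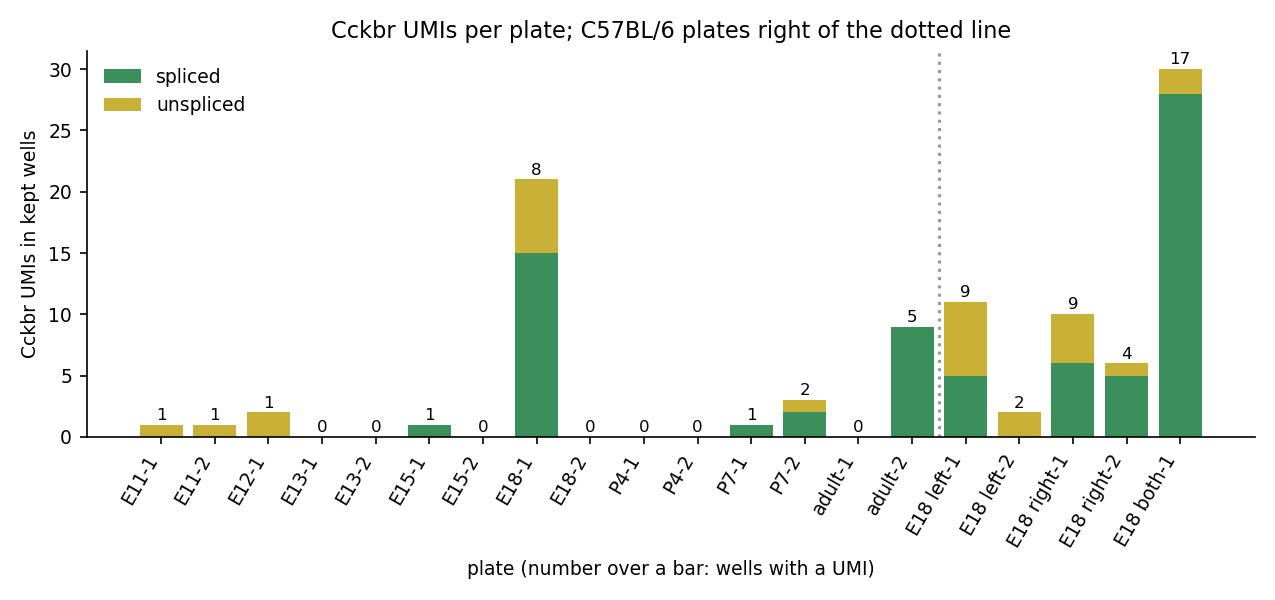
Cckbr UMIs in kept wells per plate, split into spliced (green) and unspliced (yellow), with the number of wells with a UMI above each bar and the C57BL/6 plates right of the dotted line. E18 plate 1 of the series (21 UMIs) and the plate of both sides (30 UMIs) hold most of them, and both P4 plates hold 0.

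At E18 Cck was found on every C57BL/6 plate, at 1.69 and 1.62 CPM on the left plates, 0.724 and 1.73 CPM on the right plates, and 2.89 CPM where both sides were pooled. These are 10, 3, 4, 6 and 19 UMIs in 5, 2, 3, 2 and 4 wells, and 1 well held 15 of the 19. Among neuron-like wells, Cck was found in 7 of 174 (4.02%) on the left plates and 5 of 242 (2.07%) on the right plates. On the plate of both sides it was 3 of 189 (1.59%). In the series at E18 it was 1 of 99 (1.01%), with 8 of those 99 wells on plate 1. Lines and tables differ from those of the series, so the values stand beside its 0.399 and 0.753 CPM without a comparison. Left and right plates overlapped for both genes. Red blood cell markers differed between the sides, at 19048 and 17219 CPM on the left plates and 3410 and 265 CPM on the right plates, with 0 of 6 genes at 0 on each plate, and their part in the comparison was not tested. Neither gene passed the filter on low counts for the test of side. Without the filter, edgeR gave a log2 fold change (left over right) of 0.50 ± 0.98 for Cck and -0.17 ± 0.89 for Cckbr (SE, adjusted p = 0.998 for both), standard errors that leave room for several-fold differences. Over all 15489 genes that passed, 0 were called (0% of genes tested), with 182 at an unadjusted p under 0.05 and 1 called by DESeq2, and 0 of 29 pathway genes.

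The other ligand and receptor gave a handful of UMIs. Gast had 0 to 7 UMIs per plate, with 7 at E12, and Cckar 0 to 4, with 4 on P4 plate 2. Both Cck and Cckbr in 1 well were seen once on P7 plate 1, in its 1 well with Cckbr, and in 0 of 2 such wells on P7 plate 2. On adult plate 2 it was 1 of 5 wells with Cckbr, and on the plate of both sides 1 of 17. These numbers are too small to say whether ligand and receptor share wells.

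Among genes that make and store peptides, levels at E18 differed widely: carboxypeptidase E (Cpe) stood at 399 and 317 CPM on the E18 plates of the series and the convertase gene Pcsk1 at 1.60 and 4.52 CPM. Of 35 further pathway genes, 32 passed the filter on low counts in the fit over 14 plates. From E18 to P4, 9 were called higher and 3 lower, where 19.6% of the 17453 genes tested were called (9.2% higher, 10.4% lower). The median log2 fold change was 0.42 for the list and -0.07 over all genes. Granule genes had 5 of 7 called higher and processing genes 3 of 10 higher and 1 lower, while of 12 Gq signalling genes 0 were higher and 1 was lower, and of 3 peptide-breakdown genes 1 was higher and 1 lower. The granule calls differed with and without E18 plate 1. On that plate 8 of 267 kept wells were neuron-like and progenitor markers summed to 3739 CPM, against 217 CPM on plate 2. The part of this make-up in the granule calls was not tested. In neuron-like wells, where 15.0% of all genes were called, Chgb, Scg2 and Cadps2 were called higher and Cadps lower. Without plate 1 0 granule genes were called higher and 1, Cadps, lower.

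Pcsk1, the prohormone convertase of many peptide cells, stood at 1.60 and 4.52 CPM on the E18 plates and 23.9 and 25.9 CPM on the P4 plates, 3.41 ± 0.49 on the log2 scale (SE, adjusted p = 0.00199 by edgeR). Mme, which encodes the peptidase neprilysin, stood at 5.59 and 2.26 CPM and at 49.2 and 44.8 CPM (3.71 ± 0.39, edgeR adjusted p = 0.000642). Vgf, a granule protein gene, stood at 1.60 and 21.9 CPM and at 114 and 72.1 CPM (3.38 ± 1.08). The P4 plates lay above both E18 plates for all 3 genes.

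Called lower were Pcsk5, a convertase found widely outside neurons, at 66.3 and 24.9 CPM and then 6.62 and 5.37 CPM (-2.69 ± 0.47), and Plcb1, a phospholipase C beta, at 603 and 100.4 CPM and then 33.8 and 34.4 CPM (-3.09 ± 0.60). Enpep, a peptidase gene of vessels, was near 0 at P4 (0.0767 ± 0.108 CPM, SD, n = 2) and at 2.35 ± 1.19 CPM at E18. The count of calls moved with single plates, in fits where the lone plate of a stage is assumed to vary like the other stages. Without E18 plate 1 5 pathway genes were called, Pcsk1 (2.58 ± 0.54) and Mme (4.48 ± 0.55) higher and Pcsk5, Plcb1 and Cadps lower, and Vgf was not. Without E18 plate 2 the count was 19, without P4 plate 1 it was 3 and without P4 plate 2 it was 2. In these 4 fits 8.51%, 28.5%, 4.73% and 3.08% of all genes tested were called. In neuron-like wells 8 were called, with Pcsk1, Cpe, Chgb, Scg2, Cadps2 and Mme higher and Pcsk5 and Cadps lower, against 15.0% of all genes. Plcb1 and Vgf were not called there. Without E18 plate 1 the log2 fold change was -1.43 for Plcb1 and -1.93 for Pcsk5. In a fit on the 4 plates of E18 and P4 alone 2 were called, Mme and Scg2, against 3.58% of all genes, and Pcsk1, Vgf, Pcsk5 and Plcb1 were not, at log2 fold changes of 3.27, 3.22, -2.76 and -3.16.

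From P4 to P7, where the mean level of Cck was 12.9-fold higher, 0 of the 32 pathway genes were called, and 0.00573% of all genes were (1 gene; 475 at an unadjusted p under 0.05 and 21 by DESeq2). Pcsk1 stood at 56.5 and 83.0 CPM at P7 (log2 fold change 1.46 ± 0.35, SE) and Scg2, a secretogranin gene, at 60.9 and 59.1 CPM at P4 and 146 and 196 CPM at P7 (1.49 ± 0.54), both above their P4 values on both plates. In a fit on the 4 plates of P4 and P7 alone, 6 of the list were called higher, Pcsk1, Scg2, Chga, Pam and Itpr2 among them, of 541 called among 14871 genes (3.64%). From P7 to the adult 0 of the 32 were called, against 3.58% of all genes (1.76% higher and 1.82% lower, 625 genes in all, 3607 at an unadjusted p under 0.05), and DESeq2 called 1 of the list and 1359 of all genes (7.59% of those with an adjusted p).

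**Figure D5:**
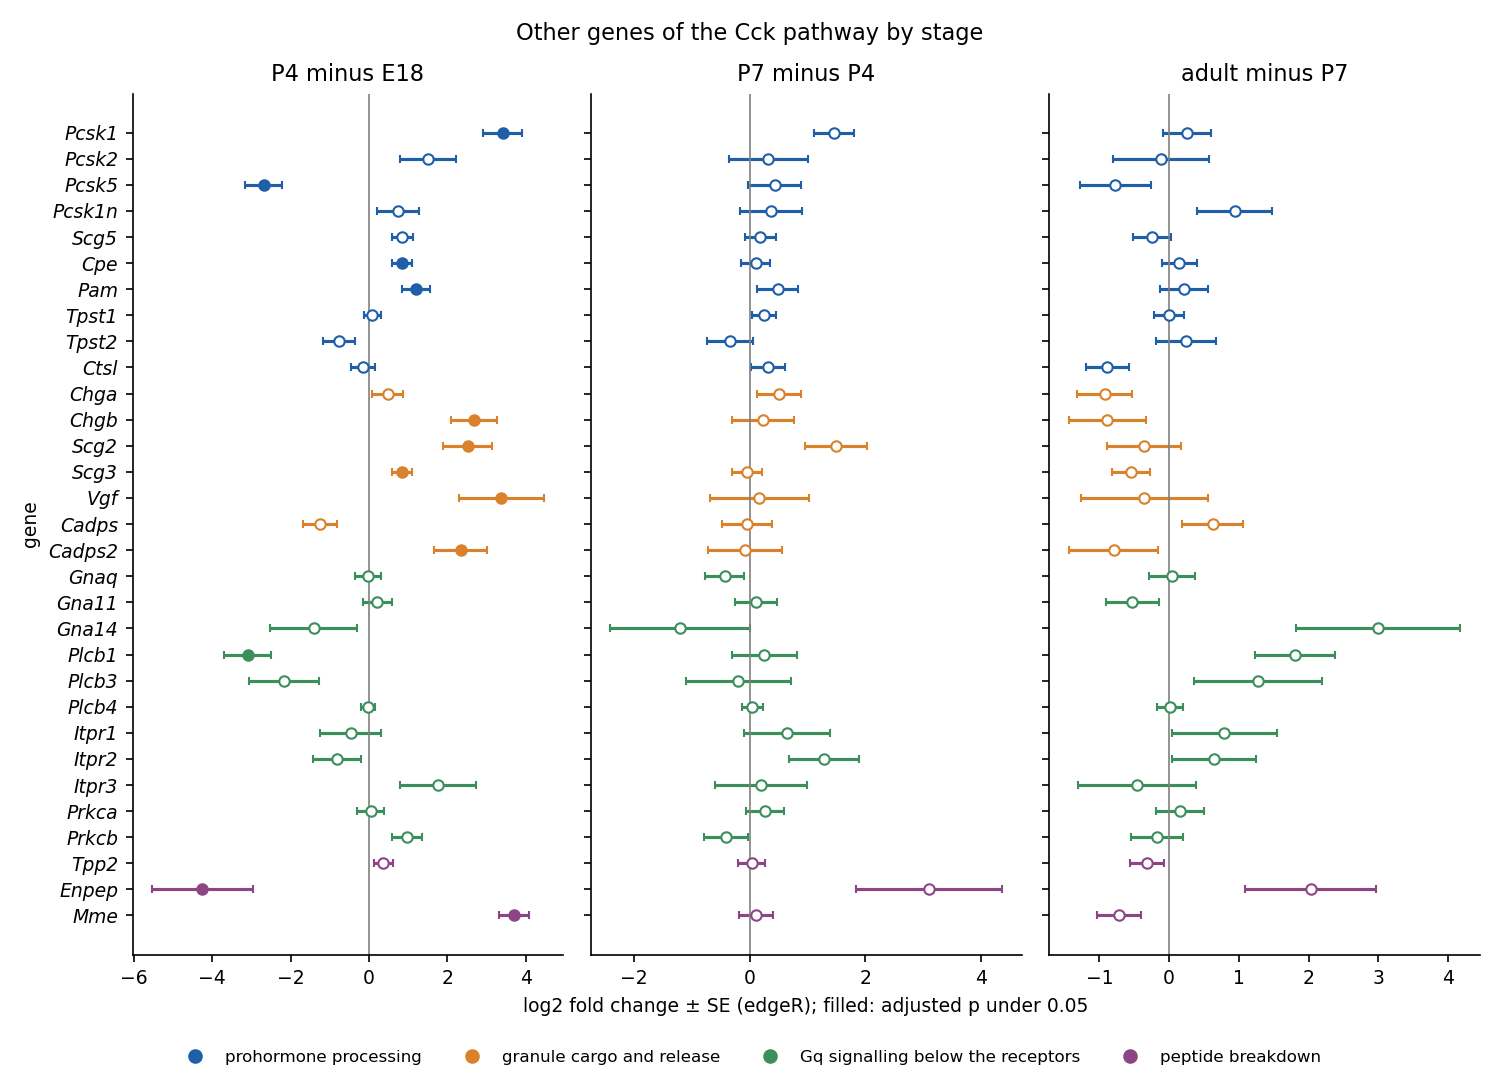
Log2 fold change ± SE from edgeR for pathway genes that passed the filter, from E18 to P4, P4 to P7 and P7 to the adult, coloured by role and filled where the adjusted p is under 0.05. In the first step 9 genes are filled on the right and 3 on the left, and in the other steps no gene is filled.

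Within the P7 plates, processing genes were found in wells with and without Cck. Pcsk2 had log2 ratios of 0.42 and 0.46, Pam, the amidating enzyme gene, 0.34 and 0.28, Pcsk1 0.13 and 0.12, and Cpe -0.10 and -0.01. Among granule genes, Vgf had ratios of 0.88 and 0.74 and Cadps, a granule priming factor gene, 0.72 and 0.88, while Scg3 had 0.01 and -0.04. Itpr2, an inositol trisphosphate receptor gene, had ratios of -2.60 and -2.53, and of 0.23 and -0.23 among neuron-like wells alone. These ratios are a description without a test.

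Over the 15 plates of the series, the genes whose level was most like that of Cck, among 8483 with a mean of at least 20 CPM, were Tac2 (Pearson r of log2(CPM + 1) = 0.96), Iqsec2 (0.96), Fam126b (0.96), Nsf (0.95) and Wbp2 (0.95). For Cckbr they were P4ha1 (0.88), Oscp1 (0.86), Ptpra (0.85), 4933434E20Rik (0.85) and Dpy19l3 (0.85), a pattern set by E18 plate 1. Plates of a stage share their stage, so these values are a description of the curves and no more.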

How the data were processed

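The authors deposited, for each set of plates, tables of total, spliced and unspliced expected counts per gene and well. Each value is a UMI number corrected for collisions among 4096 possible UMIs; this was found from the values. Inverting the correction gave whole UMIs, to within 1e-06, for 100% of the values, and, once rounded, total UMIs equalled spliced plus unspliced with 0 exceptions. Reads were trimmed with Trim Galore and aligned with STAR 2.5.3a, and the build was mm10, per the submitters' processing notes; no source used here gives the counting program, the annotation or the use of strand. A count test had been planned, so the deposited expected counts were summed over kept wells and rounded to whole numbers. The 92 spike-in rows stayed out of library sizes and tests.

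Levels are CPM over summed wells. The SE printed with an edgeR fold change was derived from its test statistic, and is not the spread of the single plates. Wells were clustered with scanpy 1.11.5 (2000 variable genes, 30 components, 15 neighbours, Leiden resolution 1.0). Sums were tested with edgeR 4.0.16 (filterByExpr, TMM, glmQLFit, glmQLFTest; R 4.3.3) with Benjamini-Hochberg adjustment over all genes tested, on the 14 plates of stages with 2 plates, on the 4 one-sided plates, and on the P4 wells split by Cck, which was left out of that test; DESeq2 1.42.0 was an alternative. On simulated counts with 4-fold changes the E18 to P4 test recovered 98.1% of changed genes, and with 2-fold changes 19.6%. The P4 test split by Cck recovered 92.6% and 12.3%. The simulated plates had the same fixed spread for every gene, not the spread of the real plates, and only genes of higher level were changed. Recovery on the real plates was therefore not measured and can be lower. The test split by Cck was not run on C57BL/6 plates, where none had 10 positive wells.

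Named genes are Cck, Cckbr, Gast and Cckar; the up to 6 called pathway genes with the largest change per step; the 10 highest and 10 lowest genes at P7 by the smaller ratio of the 2 plates; listed neuropeptide and transmitter genes of at least 20 CPM on a P7 plate; and the 5 most similar genes over plates. Single genes among these are not reported here. Pathway genes named for other settings or for wells at P7 were chosen after their values were seen. The members and all lists were chosen with earlier results of these data known. Other settings were another tool, no filter, a replicate block, single plates left out, neuron-like wells, other depths and other thresholds for a positive well.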

Additional observations from a re-analysis of the deposited data

Results flagged for a closer look

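Of the genes set beside Cck, 4 had log2 ratios of Cck-positive to Cck-negative wells that pointed one way on both P7 plates and the other way on both adult plates; the difference was not tested. Sntb1 had a mean of 3.11 at P7 and -0.51 in the adult, while the share of wells with Sntb1 was higher in Cck-positive adult wells on both plates (50.0% against 22.2%, and 24.6% against 15.3%). Such shares are not scaled for depth, and Cck-positive adult wells were deeper, at medians of 10764 and 21448 counts against 4072 and 8561. Cartpt had -0.67 at P7 and 0.71 in the adult (1.28 and 0.13 on its plates), Slc17a7 -0.66 and 0.42 (0.65 and 0.19), and Th -0.61 and 0.19 (0.06 and 0.32). Th stood at 13.4 against 12.8 CPM on adult plate 1, so some of these adult ratios lay near 0. Adult neuron-like wells formed other clusters than those of P7, 44.6% and 52.3% of kept adult wells were neuron-like, and their part in the turn was not tested.

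Wells left out on adult plate 1 held 15 Cck UMIs, in 8 of 328 wells: 5 of these had too few counts, 1 too few genes and 2 failed on the mitochondrial share alone.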

How the results depend on the processing

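The number of pathway genes called from E18 to P4 (12) ran from 2 to 19 with single plates left out and was 2 on the 4 plates alone; with the replicate number as a block it was 10. From P4 to P7 (0) it was 1 with DESeq2, 2 without the filter and 6 on the 4 plates alone (3.64% of all genes). From P7 to the adult (0) it was 1 with DESeq2 (7.59% of all genes), 4 without the filter, 1 in neuron-like wells and 2 on the 4 plates alone. The block left P4 to P7, P7 to the adult and the left and right comparison at 0. Counts without a share of all genes beside them, the 10 with the block included, cannot be read against their own fit. Same-numbered plates deviated together by correlations of 0.0229 (E18 and P4), 0.134 (P4 and P7), 0.0840 (P7 and adult) and 0.276 (right and left), and the numbers are not known to pair them. The block called 493 of all genes from P7 to the adult and 6 between sides. Called genes among all genes ranged from 528 (4 plates alone) to 5695 (without E18 plate 2) from E18 to P4, from 0 to 541 from P4 to P7, from 27 to 1766 from P7 to the adult, and from 0 to 39 between sides.

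Of the 20 genes picked at P7, 16 were called at P4 (2.85% of all genes), against 10 with DESeq2 (1.45%) and 3 after thinning (1.06%). Wells with at least 3 UMIs gave 11, without a share of all genes to set it against. Ratios that turned at P4 were Sntb1 after thinning (-0.000917), Bcas1 with at least 3 UMIs (1.02) and in neuron-like wells (0.025), Col1a2 (0.51), Col3a1 (0.080) and Sparc (0.37) in neuron-like wells, Cnp with at least 3 UMIs (-0.78) and after thinning (-0.38), and Slc17a6 with at least 3 UMIs (-0.37), without the filter (-0.046), in neuron-like wells (-0.055) and after thinning (-0.65). The cause was not tested.

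Cck levels from the spliced table alone were 8.13 CPM (P4), 105 CPM (P7) and 98.3 CPM (adult), since its totals are smaller; the adult level was 93.6 CPM in neuron-like wells and 155 CPM as a mean of single wells. The share of positive wells with at least 3 UMIs was 1.16% (P4), 16.4% (P7) and 11.2% (adult), after thinning 1.15%, 13.2% and 9.16%, and in neuron-like wells 34.3% at P7 and 44.5% in the adult. Single plates left out gave Cck levels of 5.68 to 6.79, 74.2 to 86.8 and 60.9 to 85.7 CPM, and Cckbr levels at E18 of 0 and 8.38 CPM. Depth limits Cckbr throughout and Cck before P4. No plate could be left out of the P4 test, which has 2.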
